A study of Homo sapiens with 6 samples.

Results

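Cereblon (CRBN), the CUL4-DDB1 ubiquitin ligase it belongs to, and the Ikaros factors and other partners tied to it were examined by every probe set that the array annotation assigns to 1 gene only, matched by Entrez identifier. Of the 9 genes considered, 8 had such a probe set (CRBN, DDB1, CUL4A, CUL4B, IKZF1, IKZF3, CSNK1A1 and BSG), and SLC16A1 was not analysed here. They held 37 of the 54613 probe sets other than controls, of which 41091 were named with 1 gene. CRBN had 2 probe sets, DDB1 and BSG 1 each, CUL4A and CUL4B 4 each, IKZF3 3, IKZF1 9 and CSNK1A1 13.

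Cereblon is a substrate receptor: through DDB1, a large adaptor protein, it docks onto the scaffold CUL4A or CUL4B, which brings a ubiquitin-conjugating enzyme to the bound protein. Thalidomide, lenalidomide and pomalidomide, drugs used against multiple myeloma, bind cereblon and turn the ligase towards new substrates, among them the lymphoid transcription factors IKZF1 (Ikaros) and IKZF3 (Aiolos) and, with lenalidomide, the kinase CSNK1A1. Cereblon has also been described as a chaperone-like partner of basigin (BSG, CD147) and of the lactate transporter SLC16A1 (MCT1). No label names a drug of this class in these samples, so the values describe the RNA of the ligase and its partners without one.

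The cells were JJN3, an established human myeloma line, given a virus that carried a short hairpin RNA (shRNA). On 3 arrays the shRNA targeted CKS1B, a cofactor of cyclin-dependent kinases and of the SCF-SKP2 ubiquitin ligase, and on the other 3 it was a scrambled sequence with no specific target. Each group has an array A, an array B and an array C after the letters in their titles, and the scrambled array of letter B has 1 more word in its title, without an explanation. Whether separate cultures stand behind the arrays is not labelled. The p-values thus reflect the spread among these 6 arrays alone, and that spread may be technical. All values are MAS5 intensities, a linear probe-set signal whose trimmed mean was 500 on every array. Differences are CKS1B shRNA minus scrambled shRNA in log2(value + 16), a scale that understates changes of dim probe sets. Levels of different probe sets are not compared, since their probes differ.

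CKS1B itself had values of 8266, 8441 and 7294 with scrambled shRNA and of 481, 269 and 828 with CKS1B shRNA, each in the order of arrays A, B and C, as below (probe set 201897_s_at). The groups did not overlap, and the log2 difference was -4.02 (SE 0.44), with a limma adjusted p of 0.122 over all probe sets. When CKS1B shRNA array B was left out, limma gave -3.63 (SE 0.27) with an adjusted p of 3.15e-05. That array stood apart: its correlation with the others was 0.577 to 0.610, against 0.879 to 0.958 among the other 5, and its 3′/5′ ratio of actin was 12.4, against 1.05 to 2.93. Most results are therefore given both with 6 arrays and without that array. Of 10 plasma cell markers, 5 were above 500 on all arrays, while SLAMF7 (24.8 to 160), CD27 (65.2 to 475) and CD38 (140 to 806) were low. TNFRSF17 and MZB1 were under 500 only on CKS1B shRNA array B, at 408.5 and 442.5. MZB1 was lower on every CKS1B shRNA array, at 442.5 to 2080 against 2403 to 3429 with scrambled shRNA. POU2AF1 was higher on every one, at 15392 to 30311 against 11471 to 14602, and the rest of the 10 overlapped between the groups. The B cell marker MS4A1 was at 4578 to 7996. Summed T cell markers reached 4181 in the CKS1B shRNA group, on array B, against at most 1193 on the scrambled arrays. Summed epithelial markers were 1609 to 1948 with CKS1B shRNA and 2629 to 3081 with scrambled shRNA, and of the 4 markers only EPCAM separated the groups, at 438 to 1307 against 1542 to 2188. KRT8 (inside the scrambled range of 165 to 589 on every CKS1B shRNA array), KRT18 (288 to 692 against 308 to 594) and CDH1 (17.9 to 145 against 48.8 to 191) overlapped. The part of these markers in the results was not tested.

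The RNA of the cereblon ligase and its partners gave no call between CKS1B shRNA and scrambled shRNA. In limma, 0 of the 37 probe sets passed an adjusted p of 0.05 with 6 arrays, where 0% of all probe sets did, and 0 of 37 without CKS1B shRNA array B, where 0.0201% of all did. At an unadjusted p under 0.05 the count was also 0 of 37 in both fits, against 965 and 3091 of 54613. With 1 probe set per gene, 0 of the 8 genes were called with 6 arrays (0% of 12663 genes) and 0 of 8 without that array (0.0476% of 12612 genes). The limma adjusted p of the 8 genes lay between 0.933 and 0.986 with 6 arrays and between 0.563 and 0.986 with 5. At the level of single arrays, 1 of the 37 probe sets had all CKS1B shRNA arrays below all scrambled arrays (3.60% of all probe sets) and 0 had them all above (4.17% of all). Without CKS1B shRNA array B, 1 was lower on every array (13.7% of all) and 1 higher (7.99% of all). None of these shares places the 37 probe sets above the background.

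**Figure D1:**
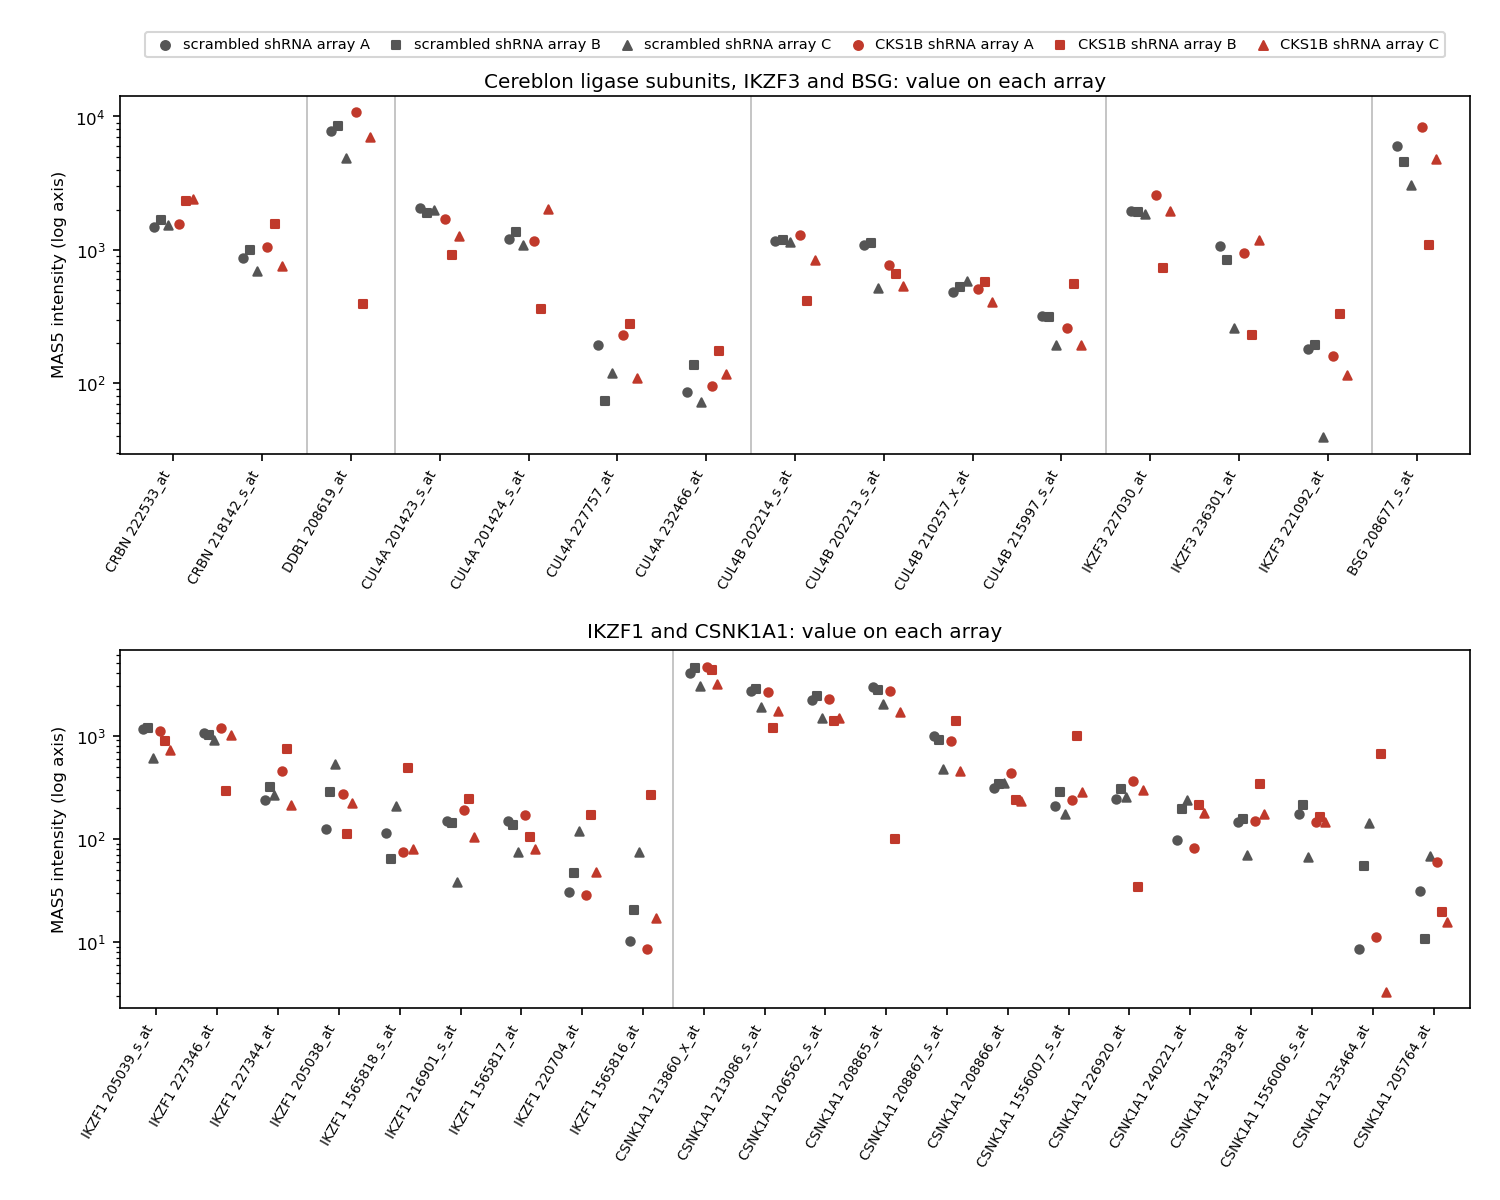
MAS5 intensity (log axis) of each of the 37 probe sets on the 3 scrambled shRNA arrays (grey) and the 3 CKS1B shRNA arrays (red), with the symbol giving the array letter. CKS1B shRNA array B (red squares) lies far below the other arrays for DDB1 208619_at, at 391, and for CSNK1A1 208865_at, at 99.4, while in CUL4A 201423_s_at all 3 red symbols lie below the grey ones.

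CRBN, the receptor that the drugs bind, had a higher mean with CKS1B shRNA in both of its probe sets. Probe set 222533_at read 1483, 1684 and 1523 with scrambled shRNA and 1573, 2318 and 2427 with CKS1B shRNA. Arrays B and C of the CKS1B shRNA group lay above all scrambled arrays, and array A lay within the scrambled range. The means were 1564 ± 107 and 2106 ± 465 (SD, n = 3 arrays each), and the exact two-sided permutation test gave p = 0.2, where 3 arrays against 3 cannot go below 0.1. The log2 difference was 0.40 (95% interval -0.40 to 1.21) with 6 arrays and 0.32 (-0.25 to 0.89) with 5.

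The other CRBN probe set, 218142_s_at, read 865, 992 and 693 with scrambled shRNA and 1043, 1566 and 754 with CKS1B shRNA. Here arrays A and B of the CKS1B shRNA group were above the scrambled range and array C was inside it, so the array C reading of the 2 CRBN probe sets did not move together. Its log2 difference was 0.34 (-0.51 to 1.20) with 6 arrays and 0.07 (-0.56 to 0.71) with 5. On CKS1B shRNA array B both CRBN probe sets were above the scrambled mean, by 0.57 and 0.88 on the log2 scale. Bright probe sets as a whole (scrambled mean of 500 or more) had a median of -0.61 there. The SD over all probe sets on that array was 1.64. CSNK1A1 208867_s_at (0.86) and 213860_x_at (0.18) and CUL4B 210257_x_at (0.11) were above the scrambled mean as well, while 13 of the 18 bright member probe sets were below it.

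DDB1, the adaptor that holds the receptor to the scaffold, was measured by 208619_at. Its values were 7843, 8501 and 4878 with scrambled shRNA and 10756, 391 and 7019 with CKS1B shRNA. Array A was the highest of all 6 and array B the lowest, so the groups overlapped and the sign rested on array B. The log2 difference was -1.14 (SE 1.01, interval -3.37 to 1.09) with 6 arrays and 0.34 (-0.29 to 0.96) without array B.

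CUL4A, one of the alternative scaffolds, held the only probe set of the 37 whose groups did not overlap on the 6 arrays. Probe set 201423_s_at read 2059, 1875 and 1999 with scrambled shRNA and 1706, 913 and 1270 with CKS1B shRNA. All CKS1B shRNA arrays were below all scrambled arrays, and this also held for arrays A and C alone. The means were 1978 ± 93.8 and 1296 ± 397 (SD, n = 3 each), and the exact two-sided permutation p was 0.1, the smallest the design allows. The log2 difference was -0.65 (SE 0.37, interval -1.47 to 0.17) with 6 arrays, 1.57-fold lower, and -0.42 (-0.97 to 0.12) without array B. In limma the adjusted p was 0.9999 over all probe sets with 6 arrays and 0.94 with 5, so the difference was not a call.

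The other CUL4A probe sets did not repeat this. Probe set 201424_s_at read 1199, 1366 and 1088 with scrambled shRNA and 1158, 359 and 2025 with CKS1B shRNA. Array C of the CKS1B shRNA group was the highest of the 6 here and array B the lowest. The log2 difference was -0.35 with 6 arrays and 0.33 without array B. The dimmer 227757_at and 232466_at, with scrambled means of 129 and 98.6, had differences of 0.62 and 0.34 with 6 arrays and 0.37 and 0.13 with 5.

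CUL4B, the X-linked paralog of CUL4A, had a lower mean in all 4 probe sets once CKS1B shRNA array B was left out, with log2 differences of -0.40 to -0.16. The groups overlapped in each of them. The tightest scrambled readings were those of 202214_s_at, at 1164, 1176 and 1151, against 1283, 413 and 839 with CKS1B shRNA. Array A was above that range, arrays B and C below it, and the difference was -0.59 (-1.56 to 0.37) with 6 arrays and -0.16 (-0.76 to 0.44) with 5.

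In CUL4B 202213_s_at the scrambled arrays read 1091, 1133 and 517 and the CKS1B shRNA arrays 776, 662 and 541. Scrambled array C was the lowest of the 6, and the difference was -0.39 with 6 arrays and -0.40 with 5. Probe set 210257_x_at read 483, 525 and 581 against 506, 570 and 409, where only CKS1B shRNA array C lay outside the scrambled range. The dim 215997_s_at read 318, 312 and 193 against 261, 559 and 195, and its difference went from 0.18 with 6 arrays to -0.23 with 5. The suffix x marks probe sets whose probes can match transcripts of other genes, so 210257_x_at is less certain as a measure of CUL4B.

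IKZF1, the Ikaros transcription factor that lenalidomide and pomalidomide make a substrate of cereblon, had 9 probe sets, of which 4 were at or above the median level of the array. The brightest over the 6 arrays, 205039_s_at, read 1168, 1189 and 600 with scrambled shRNA and 1103, 887 and 733 with CKS1B shRNA. Every CKS1B shRNA array lay inside the scrambled range, and the difference was -0.07 (-0.95 to 0.80) with 6 arrays and -0.07 (-0.79 to 0.66) with 5. Its sign turned when scrambled array A, scrambled array B or CKS1B shRNA array C was left out, with values of 0.08, 0.09 and 0.07.

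A second IKZF1 probe set, 227346_at, read 1049, 1016 and 897 against 1173, 292 and 1006. CKS1B shRNA array B was the lowest and array A the highest, and the difference went from -0.47 with 6 arrays to 0.14 (-0.44 to 0.72) without array B. The dimmer 227344_at read 237, 315 and 264 against 453, 742 and 213, with CKS1B shRNA arrays A and B above the scrambled range and array C below it. In 205038_at the scrambled arrays alone spanned 124, 286 and 533, and the CKS1B shRNA arrays read 274, 111 and 223. The remaining 5 IKZF1 probe sets had scrambled means of 35.3 to 129. Their log2 differences were -0.03 to 0.73 with 6 arrays and -0.64 to 0.49 without array B. Of these, all but 216901_s_at changed sign between the 2 fits.

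IKZF3, Aiolos, a close relative of IKZF1 and a substrate of the drug-bound ligase as well, was measured by 3 probe sets. The brightest, 227030_at, read 1940, 1916 and 1863 with scrambled shRNA and 2601, 734 and 1944 with CKS1B shRNA. The scrambled arrays lay close together, and CKS1B shRNA arrays A and C were both above them, array C by less than 5 units, while array B was far below. The difference was -0.29 (-1.34 to 0.75) with 6 arrays and 0.24 (-0.30 to 0.77) without array B, the 1 probe set of the 37 that was then higher on every array.

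The second IKZF3 probe set, 236301_at, read 1066, 838 and 259 against 952, 229 and 1186. Each group held 1 array far below its other 2, and the difference was 0.05 with 6 arrays and 0.77 (-0.19 to 1.73) with 5. It was -0.55 when scrambled array C was left out. The dim 221092_at read 181, 193 and 39.3 against 160, 332 and 115, and gave 0.60 and 0.20.

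CSNK1A1, casein kinase 1 alpha, which takes part in the beta-catenin destruction complex and becomes a substrate of cereblon with lenalidomide, had 13 probe sets. The brightest, 213860_x_at, read 4004, 4493 and 3018 with scrambled shRNA and 4662, 4287 and 3165 with CKS1B shRNA. The groups overlapped almost wholly, with a difference of 0.07 (-0.88 to 1.02) with 6 arrays and 0.02 (-0.55 to 0.59) with 5, and the suffix x again marks probes that can match other genes. In 213086_s_at the values were 2684, 2830 and 1877 against 2661, 1189 and 1728, and in 206562_s_at 2214, 2411 and 1484 against 2256, 1396 and 1484. In both, CKS1B shRNA array B was the lowest array, and the differences without it were -0.18 and -0.12.

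Probe set 208865_at of CSNK1A1 had the largest difference of the 37, and it came from 1 array. It read 2966, 2760 and 2018 with scrambled shRNA and 2691, 99.4 and 1712 with CKS1B shRNA. The log2 difference was -1.65 (SE 0.93, interval -3.71 to 0.40) with 6 arrays and -0.25 (-0.84 to 0.35) without array B. In 208867_s_at, by contrast, array B was the highest: the values were 989, 909 and 476 against 882, 1379 and 455, with differences of 0.12 and -0.24.

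The other 8 CSNK1A1 probe sets had scrambled means of 36.9 to 333. Array B was the highest of the 6 in 1556007_s_at, at 981 against 172 to 284 on the other arrays, and the lowest in 226920_at, at 34.5 against 244 to 362. In 235464_at it read 667, while the other arrays read 3.30 to 142. On the log2 scale, the 13 probe sets of this 1 gene spread over 7.87 units around the scrambled mean on CKS1B shRNA array B, against 1.93 to 3.25 units on the other 5 arrays. For IKZF1 the same spread was 0.56 to 3.13 units on those 5 arrays and 4.36 on array B.

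BSG, basigin, the membrane glycoprotein that escorts lactate transporters to the cell surface, was measured by 208677_s_at. It read 6059, 4590 and 3090 with scrambled shRNA and 8385, 1083 and 4761 with CKS1B shRNA. Array A of the CKS1B shRNA group was the highest of the 6, array B the lowest, and array C inside the scrambled range. The means were 4580 ± 1484 and 4743 ± 3651 (SD, n = 3 each). The log2 difference was -0.33 (-1.85 to 1.20) with 6 arrays and 0.52 (-0.15 to 1.18) without array B.

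**Figure D2:**
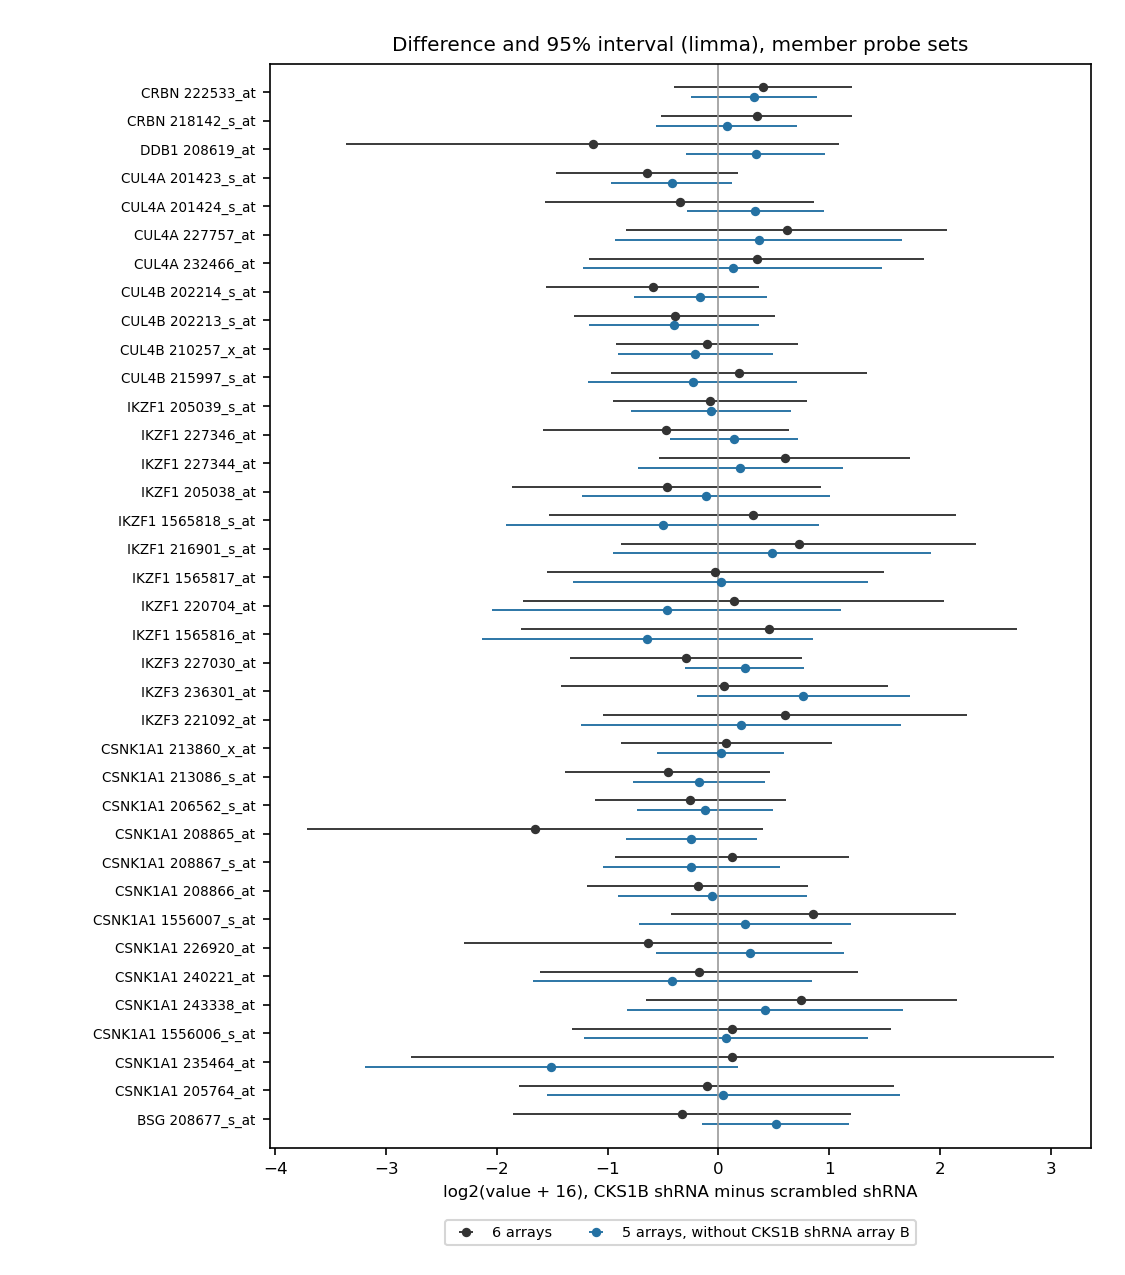
Log2 difference, CKS1B shRNA minus scrambled shRNA, of each of the 37 probe sets with its 95% interval from limma, with 6 arrays and without CKS1B shRNA array B. Every interval includes 0, and the median half-width of the 18 brighter probe sets is 0.96 with 6 arrays and 0.62 with 5.

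The 37 probe sets split almost evenly by sign. With 6 arrays 19 had a lower and 18 a higher mean with CKS1B shRNA (51.4% lower, median -0.03), against 41.9% lower and a median of 0.12 over all 54613. Without array B the split was 17 and 20 (45.9% lower, median 0.02), against 61.2% lower and a median of -0.15 over all. The sign differed between the fits with 6 and with 5 arrays in 14 of 37 (37.8%), close to the 36.4% of all probe sets. Scaling moved the split. Centring each array on its median lowered the median of all differences by 0.23 and gave 26 lower and 11 higher (70.3% lower, against 56.9% of all). Quantile normalization lowered that median by 0.12 and gave 21 and 16 (56.8% lower, against 49.9% of all).

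With 6 arrays the share of lower means was greater among brighter probe sets, in the 37 and over the whole array. Without array B the share stayed greater among the brighter of the 37, by a smaller margin. Over the whole array it was then smaller among the brighter ones. Among the 18 probe sets with a scrambled mean of 500 or more, 13 had a lower mean with 6 arrays (72.2%, against 68.0% of all such probe sets), and 9 without array B (50% against 50.1%). Among the 19 dimmer ones, 6 were lower (31.6% against 33.6%), and 8 without array B (42.1% against 64.8%). On CKS1B shRNA array B the brighter 18 had a median of -1.06 against the scrambled mean, and the dimmer 19 a median of 1.12. Over all probe sets these medians were -0.61 and 1.21. The correlation between a probe set's scrambled level and its deviation on that array was -0.69 over the 37 and -0.63 over all, a description across probe sets that share the array and the scrambled mean.

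The other arrays were closer to the scrambled mean. The median deviation of the 37 was 0.18 on CKS1B shRNA array A and -0.25 on array C, with SDs of 0.50 and 0.48 across the probe sets, against an SD of 1.70 on array B. Of the 18 brighter probe sets, 4 lay below the scrambled mean on array A, 13 on array B and 11 on array C. Scrambled array C was itself low: 16 of the 18 lay below the mean of the other 2 scrambled arrays, with a median of -0.49, against -0.15 for all brighter probe sets.

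**Figure D3:**
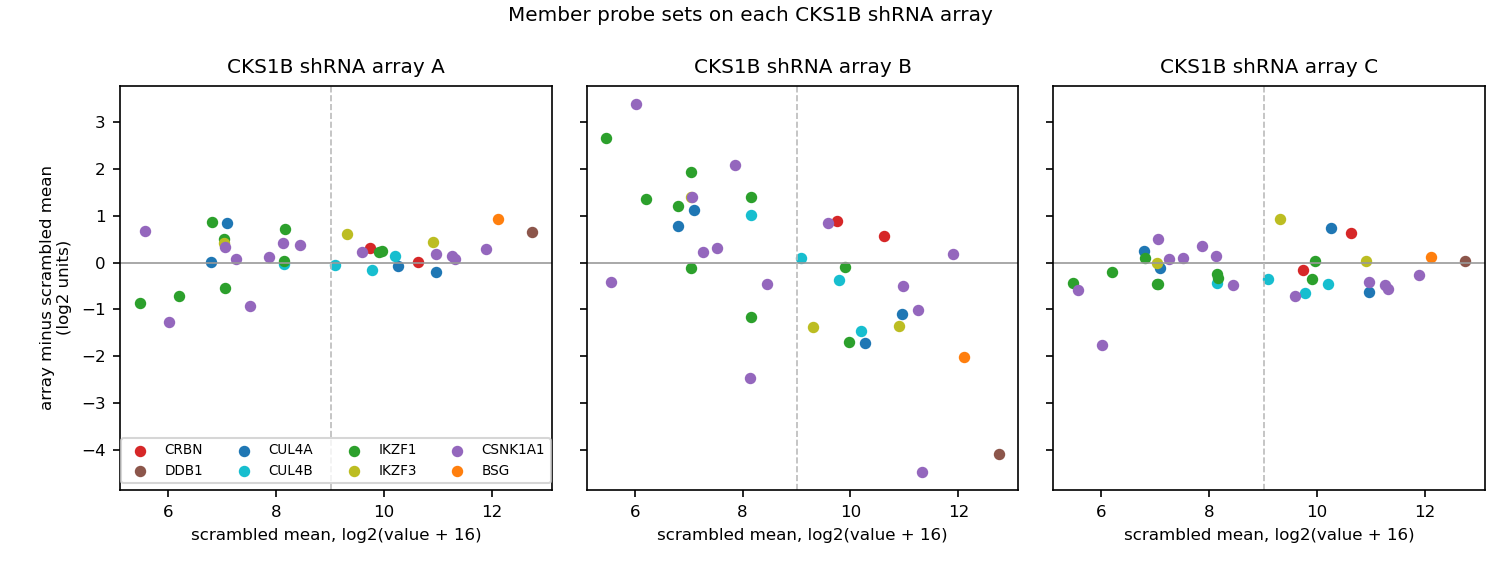
Deviation of each of the 37 probe sets from the scrambled mean on each CKS1B shRNA array, in log2 units, against its scrambled mean in log2(value + 16), coloured by gene, with a dashed line at the value of 500. On CKS1B shRNA array B the points run from 3.39 for CSNK1A1 235464_at down to -4.47 for CSNK1A1 208865_at and -4.08 for DDB1, while on arrays A and C of that group they stay between -1.75 and 0.92.

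How small a difference these arrays could have missed depended on brightness. Without array B, the 95% interval of 14 of the 18 brighter probe sets lay within 1 log2 unit of 0 on both sides, and that of 1 of the 19 dimmer ones. With 6 arrays this held for 2 of 18 and 0 of 19. A missing call therefore does not show equal levels.

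Differences between partners on the same array were compared for 3 pairs, each by the brightest probe set of the gene. DDB1 minus CRBN was 2.39, 2.32 and 1.67 on the scrambled arrays and 2.76, -2.52 and 1.53 on the CKS1B shRNA arrays. Only array B left the scrambled range by a wide margin, and the shift was -1.54 with all arrays (exact two-sided permutation p = 0.6) and 0.02 without array B (exact p = 1).

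CUL4B minus CUL4A was -0.81, -0.67 and -0.79 with scrambled shRNA and -0.41, -1.11 and -0.59 with CKS1B shRNA. Arrays A and C were above the scrambled range and array B below it, which gave a shift of 0.05 with 6 arrays (exact permutation p = 0.9). Without array B the shift was 0.26 and the groups did not overlap, with an exact permutation p of 0.1, the smallest that 2 arrays against 3 allow. IKZF3 minus IKZF1 was 0.72, 0.68 and 1.61 against 1.23, -0.27 and 1.39, a shift of -0.22 with 6 arrays (exact permutation p = 0.8) and of 0.30 without array B (exact p = 0.4). Adjusted over the 3 pairs, the exact p was 0.9 for each with 6 arrays. Without array B it was 0.3 for CUL4B minus CUL4A, 0.6 for IKZF3 minus IKZF1 and 1 for DDB1 minus CRBN, so no pair passed the threshold in a design that could not reach it, and the values of each pair are ratios of different probe sets that carry meaning only between arrays.

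The genes whose pattern over the 6 arrays was most like that of CRBN 222533_at, with each array centred on its median, were DEDD (Pearson r 0.999), BCAT2 (0.999) and PDCD6IPP2 (0.998). For IKZF1 205039_s_at they were SMAD2 (0.998), CD99L2 (0.997) and MPV17 (0.997). With 6 arrays such values are common: 215 of 12662 genes exceeded an r of 0.95 with CRBN and 465 with IKZF1. They are given as a description.

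Around the ligase, the enzymes that switch CUL4 complexes on and off gave no call either. Of 24 core, neddylation and regulatory genes, 20 were tested, with 0 called, 15 lower and 5 higher (median -0.46). Over all genes tested 7054 of 12663 were lower, with a median of -0.08. The tested genes of this list other than DET1 had scrambled means of 500 or more. Of all probe sets that bright, 68.0% were lower with 6 arrays, with a median of -0.24. Without array B 12 of 19 were lower (median -0.06, against -0.03). UBA3, a subunit of the enzyme that activates NEDD8, read 3614, 4273 and 3275 with scrambled shRNA and 2905, 472 and 2783 with CKS1B shRNA. Its groups did not overlap, and the log2 difference was -1.23 with 6 arrays and -0.38 with 5. CAND1, which exchanges the receptors of cullin ligases, read 2479, 2364 and 1900 against 2248, 1184 and 1291, with -0.56 and -0.39. The limma adjusted p of each gene named from these lists was 0.933 with 6 arrays.

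Among 23 other receptors that compete with cereblon for DDB1 and CUL4, all 23 were tested and 0 were called, 14 with a lower and 9 with a higher mean (median -0.08), and 10 and 13 without array B (median 0.02). DCAF4 read 1230, 1456 and 1333 against 1108, 522 and 809, and the groups did not overlap. DDB2, the receptor for ultraviolet-damaged DNA, read 261, 286 and 566 against 209, 182 and 179, again without overlap. Their differences were -0.77 and -0.83 with 6 arrays and -0.49 and -0.80 with 5. That of DDB2 was -0.49 when scrambled array C, its highest reading, was left out.

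Of the other Ikaros family members and known substrates of cereblon, 15 of 16 were tested with 0 called, 7 lower and 8 higher (median 0.02, and 0.01 without array B). ZNF827, a zinc finger protein, read 609, 658 and 713 with scrambled shRNA and 917, 1307 and 930 with CKS1B shRNA. All CKS1B shRNA arrays were above all scrambled ones, with a difference of 0.64, or 0.48 without array B. IKZF2 (Helios), the Ikaros relative of regulatory T cells, read 901, 942 and 914 against 905, 2027 and 1760, where array A lay inside the scrambled range and arrays B and C above it, with differences of 0.68 and 0.45.

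Ikaros-regulated and interferon-linked genes were measured too. Of 4 listed, 3 were tested, with 0 called, 2 lower and 1 higher (median -0.51, and -0.11 without array B). MYC, a growth-promoting transcription factor, read 13003, 10918 and 12495 against 12264, 124 and 10254. Its low mean came from array B, with a difference of -2.22 with 6 arrays and -0.11 with 5. IRF4, on which myeloma cells depend, read 10257, 7988 and 7783 against 10112, 3529 and 6115, and gave -0.51 and -0.13.

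Partners of CSNK1A1 in the Wnt pathway numbered 10 tested of 11, with 0 called, 4 lower and 6 higher (median 0.09, and 0.23 without array B). The kinase paralogs CSNK1E and CSNK1G1 had the smallest p, with differences of -0.66 and 0.54 with 6 arrays and -0.20 and 0.24 with 5. Partners of basigin in lactate transport and glycolysis numbered 10 tested of 12, with 0 called, 6 lower and 4 higher (median -0.09, and 0.07 without array B). NPTN (neuroplastin), a relative of basigin, read 4573, 4662 and 2915 against 2599, 2922 and 2232. Its difference was -0.62 with 6 arrays and -0.71 with 5, and without array B the groups did not overlap. SLC2A1 (GLUT1), a glucose transporter, read 1231, 1503 and 2354 against 1176, 667 and 1271, and gave -0.70 and -0.41, or -0.44 without scrambled array C.

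**Figure D4:**
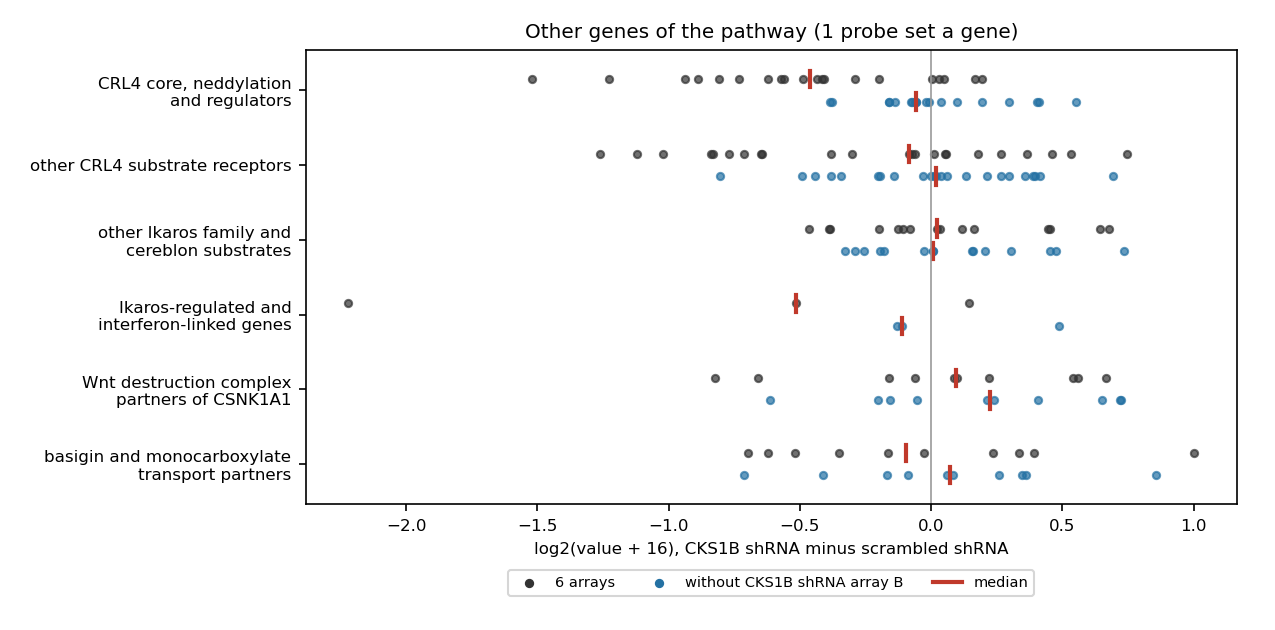
Log2 difference, CKS1B shRNA minus scrambled shRNA, of each tested gene of the 6 lists around the cereblon ligase, with 6 arrays and without CKS1B shRNA array B, and the median of each list. The median of the core and neddylation list is -0.46 with 6 arrays and -0.06 without array B, and no gene of any list is called.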

How the data were processed

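RNA of JJN3 was measured on 6 arrays, 3 per group, grouped by the labels' descriptions. The deposited table gives each probe set's intensity on each array on a linear scale, which the authors made with MAS5 per the submitters' processing notes, in a version not given in the sources used here. Their equal trimmed means leave differences in the width of the distributions between arrays. The number of arrays limits the precision. Of 54675 probe sets, 62 controls were left out. Names came from the platform annotation, with current symbols from RefSeq.

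Values became log2(value + 16). All 54613 other probe sets went into limma (version 3.58.1, under R 4.3.3; lmFit, then eBayes with trend), p-values adjusted by Benjamini-Hochberg, threshold 0.05. For genes, probe sets under the median level (7.34, a value of about 146) were dropped and the brightest was kept. Single values had two-sided exact permutation tests. The fit was tested on simulated data with equal noise on every array, which does not cover an array that stands apart like CKS1B shRNA array B. The members, lists, tests and alternatives were chosen with earlier results of these data known. All members were named, with CKS1B, the 2 genes of smallest p per list where none was called, and the 3 genes most alike to CRBN and to IKZF1. The pair SLC16A1 and BSG was not computed, so p was adjusted over 3 pairs. Alternatives were other pseudocounts, normalizations, weights, filters, the letter as a block, and arrays left out. The plots come from matplotlib 3.10.9 under Python 3.11.15.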

Additional observations from a re-analysis of the deposited data

How the results depend on the processing

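No member probe set was called under any alternative run, the lowest limma adjusted p being 0.331, with array weights. Of the 37, 12 kept their sign throughout (6 of 18 brighter and 6 of 19 dimmer), and the cause of the reversals was not tested. The brighter ones were CRBN 222533_at, CUL4A 201423_s_at, CUL4B 202214_s_at and 202213_s_at, and CSNK1A1 213086_s_at and 208865_at. The last of these had a difference that came from 1 array, so a kept sign is no support for a difference. The letter as a replicate block gave 0 calls among member probe sets; in this balanced design it cannot alter a difference, only its error. Same-letter correlations of deviations were 0.40, -0.05 and -0.02, and those between different letters were -0.36 to 0.23. The deviations are from each group's mean, which for CKS1B shRNA includes array B. They cannot decide whether the letters pair the arrays. With array weights BSG was 0.12, CRBN 218142_s_at -0.059, CSNK1A1 208867_s_at -0.57 and 213860_x_at -0.17, CUL4A 201424_s_at 0.30, IKZF3 227030_at 0.11, CKS1B -3.62 (-3.80 by gene), and 86 probe sets and 4 genes were called in all. Quantile normalization gave IKZF1 205039_s_at 0.011, IKZF3 236301_at -0.21 and CUL4B minus CUL4A -0.24. In a separate run without quantile normalization, averaging all probe sets of a gene gave CUL4B minus CUL4A -0.22. Median centring gave CSNK1A1 208867_s_at -0.11 and 213860_x_at -0.16 and IKZF3 236301_at -0.18. Without both arrays of letter B, BSG was 0.54, CSNK1A1 206562_s_at 0.013 and 208867_s_at -0.11, CUL4A 201424_s_at 0.42, DDB1 0.49, IKZF1 205039_s_at 0.10 and 227346_at 0.16, IKZF3 227030_at 0.24, DDB1 minus CRBN 0.11, IKZF3 minus IKZF1 0.14 and CKS1B -3.59, with 16 probe sets and 1 gene called. Quantile normalization with CKS1B shRNA array B left out gave BSG 0.35, CSNK1A1 208867_s_at -0.11 and 213860_x_at -0.10, CUL4A 201424_s_at 0.34, DDB1 0.11, IKZF1 205039_s_at 0.018 and 227346_at 0.17, IKZF3 227030_at 0.20, IKZF3 minus IKZF1 0.18 and CKS1B -3.68, with 2 probe sets and 2 genes called. Leaving out each array in turn gave ranges of -0.95 to 0.52 for BSG, -4.41 to -3.63 for CKS1B, -0.24 to 0.54 for CSNK1A1 208867_s_at, -0.090 to 0.24 for 213860_x_at, -0.89 to 0.33 for CUL4A 201424_s_at, -0.21 to 0.023 for CUL4B 210257_x_at, -2.03 to 0.34 for DDB1, -0.39 to 0.093 for IKZF1 205039_s_at, -0.84 to 0.14 for 227346_at, -0.66 to 0.24 for IKZF3 227030_at and -0.55 to 0.77 for 236301_at. The ranges were -0.10 to 0.26 for CUL4B minus CUL4A, -2.63 to 0.015 for DDB1 minus CRBN and -0.53 to 0.30 for IKZF3 minus IKZF1. Calls ranged from 0 to 11 probe sets and 0 to 6 genes, the highest without CKS1B shRNA array B, where 2 member probe sets had groups that did not overlap. Among the 19 dimmer probe sets, 9 turned sign with array weights, 7 without both letter B arrays, 8 with quantile normalization and array B left out, 4 with median centring, 2 with quantile normalization and 1 with a pseudocount of 1. Where 2 arrays are left in a group, limma takes the spread from both groups. Leaving out each array for the genes of the pathway lists was chosen after seeing the data. The median half-width of the 95% interval with 6 arrays was 1.52 for the dimmer probe sets and 0.96 for the brighter ones.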
